A study of Homo sapiens with 6 samples.

Results

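Regions of open chromatin that lie at the ends of more than 1 gene were followed through 6 ATAC-seq libraries. Merging every peak interval on chromosomes 1 to 22 and X that touched another by 1 bp or more, over all 6 lists, gave 28879 regions. A region was kept when it lay within 1000 bp of a start or end of 2 or more different protein-coding genes of RefSeq (assembly GRCh38.p14), and 2152 regions (7.45%) met this rule. The rule used position and no measured strength, but the width of a merged region enters its position. The 2152 regions touched 3671 different genes, of 11618 protein-coding genes with any region within the same distance. In 2051 regions there were exactly 2 genes, in 95 there were 3 and in 6 there were 4.

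The libraries came from Huh7, an established human hepatocellular carcinoma line. All 6 carried a knockout of ARID1A, which encodes a subunit of SWI/SNF chromatin remodellers, and a Flag-tagged ARID1A put back by lentivirus and stably expressed. The groups were V2084D shSTUB1 (the V2084D form of ARID1A with knockdown of STUB1, a ubiquitin ligase that works with chaperones), V2084D (the same form without that knockdown) and WT (wild-type ARID1A), with 2 libraries each. The labels name no control hairpin for V2084D, do not say whether a group is 1 clone and do not say whether its libraries came from separate cultures, so the spread between them may be technical. The design addresses what the V2084D form does to accessibility, and whether loss of STUB1 alters it.

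Genes arranged head to head lie on opposite strands with their starts close together, so a single nucleosome-free stretch can serve both as a bidirectional promoter. Such promoters are common in the human genome, often lie in CpG islands, usually lack a TATA box, and are known for housekeeping genes of DNA repair, mitochondria and chaperones. ATAC-seq inserts adapters into open DNA with the Tn5 transposase, and a peak marks a stretch with more insertions than its surroundings. A peak at a shared promoter does not say which of the genes is transcribed.

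The stretches between the starts of 9 head-to-head pairs are shown because the results below turn on them. They were read from RefSeq promoter sequences of GRCh38.p14, on the plus strand, 5′ to 3′, from the base after the left-hand start to the base before the right-hand start. Capitals mark exact matches, on either strand, to the motifs spelled out further on. TMEM53/ARMH1, KIAA0319L/NCDN and UQCC6/TDG were among the strongest pairs with a peak in all 6 libraries, and HSPD1/HSPE1 is a long-known pair.
TMEM53/ARMH1 (chr1:44674482-44674713): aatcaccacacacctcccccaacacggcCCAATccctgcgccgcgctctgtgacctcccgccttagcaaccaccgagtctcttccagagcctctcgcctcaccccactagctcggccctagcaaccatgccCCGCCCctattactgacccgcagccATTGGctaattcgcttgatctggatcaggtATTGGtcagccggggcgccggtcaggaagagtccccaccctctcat
KIAA0319L/NCDN (chr1:35557662-35557798): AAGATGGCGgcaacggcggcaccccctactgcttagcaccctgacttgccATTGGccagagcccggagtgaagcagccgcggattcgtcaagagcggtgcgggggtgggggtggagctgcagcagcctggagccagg
UQCC6/TDG (chr12:103965708-103965871): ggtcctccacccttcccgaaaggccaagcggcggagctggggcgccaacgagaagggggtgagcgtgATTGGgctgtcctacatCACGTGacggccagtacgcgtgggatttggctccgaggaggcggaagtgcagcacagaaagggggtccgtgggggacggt
HSPD1/HSPE1 (chr2:197500275-197500378): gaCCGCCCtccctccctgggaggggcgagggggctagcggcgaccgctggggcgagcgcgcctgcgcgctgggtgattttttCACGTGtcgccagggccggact
The stretches of the next 5 pairs had peaks in some groups and not in others. For MRPL46/MRPS11 the 250 bases before the MRPS11 start are given, and that stretch held no match. The part next to the MRPL46 start is not shown. The summits of V2084D shSTUB1 replicate 2 and of both V2084D libraries lay in that part.
MRPL46/MRPS11 (chr15:88467458-88467707): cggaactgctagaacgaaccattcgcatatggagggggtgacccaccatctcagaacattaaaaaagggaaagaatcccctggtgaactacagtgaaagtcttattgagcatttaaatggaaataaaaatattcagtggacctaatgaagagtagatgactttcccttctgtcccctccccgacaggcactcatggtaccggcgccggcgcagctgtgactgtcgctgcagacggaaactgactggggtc
KNOP1/IQCK (chr16:19718228-19718270): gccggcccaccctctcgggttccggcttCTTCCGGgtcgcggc
GTF3C1/KATNIP (chr16:27549914-27550143): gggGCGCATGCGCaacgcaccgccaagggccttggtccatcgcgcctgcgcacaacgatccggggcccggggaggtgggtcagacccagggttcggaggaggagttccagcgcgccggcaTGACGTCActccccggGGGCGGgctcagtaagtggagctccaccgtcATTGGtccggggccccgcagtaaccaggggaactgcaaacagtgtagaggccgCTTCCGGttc
CIAPIN1/COQ9 (chr16:57447386-57447478): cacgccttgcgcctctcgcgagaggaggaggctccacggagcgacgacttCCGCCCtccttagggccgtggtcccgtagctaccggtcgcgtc
TBCCD1/DNAJB11 (chr3:186570544-186570719): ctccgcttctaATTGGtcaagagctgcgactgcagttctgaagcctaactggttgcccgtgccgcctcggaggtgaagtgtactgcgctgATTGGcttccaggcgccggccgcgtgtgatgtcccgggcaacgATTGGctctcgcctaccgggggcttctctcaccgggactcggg

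The lists differed in length. They held 16687 and 12320 regions for V2084D shSTUB1, 8008 and 22215 for V2084D, and 8861 and 6394 for WT. Depth relative to WT replicate 2, recovered from the fold and −log10 p that the authors' peak caller gave each summit, was 1.49 and 1.23 for V2084D shSTUB1, 1.17 and 1.70 for V2084D, and 1.01 and 1 for WT. Both WT libraries were thus the shallowest, and depth and group cannot be told apart here. V2084D replicate 2 stood apart as the longest and deepest list, and results that rest on it are also given without it. The strongest summit of a shared region rested on few reads, with medians of 13 and 11 in V2084D shSTUB1, 9 and 16 in V2084D, and 10 in each WT library. A region with no listed peak was not called at such depths, which is no measure of closed chromatin. Of 16 hepatocyte markers, 4 had a region at a gene end (APOA1, FOXA1, CEBPA and TF), while 12, ALB, AFP and APOB among them, had none, against 11618 of 19974 protein-coding genes (58.2%) with one. No region was found at any of 5 leukocyte markers, while KDR of 4 endothelial markers and COL1A1 and ACTA2 of 5 fibroblast and stellate cell markers had one.

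Peaks were found at 1699 and 1444 of the 2152 shared regions in V2084D shSTUB1, at 1147 and 1947 in V2084D, and at 1183 and 954 in WT. V2084D replicate 2 covered 90.5% of them and WT replicate 2 covered 44.3%. As a share of each library's own regions the order was turned round, with 10.2% and 11.7% in V2084D shSTUB1, 14.3% and 8.76% in V2084D, and 13.4% and 14.9% in WT. The longest list thus had the smallest share at shared gene ends and the shortest list the largest. A peak in all 6 libraries was found at 647 shared regions (30.1%), against 11.3% of all 28879 regions. Of the remaining shared regions, 401 had a peak in 1 library, 233 in 2, 220 in 3, 290 in 4 and 361 in 5. V2084D replicate 2 was the only library with a peak at 234 of those 401.

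The arrangement of the gene ends was known where RefSeq gave a strand. Head-to-head starts made up 1179 regions, a start beside the end of another gene 362, starts on the same strand 37 and ends alone 31. In 48 regions the second gene was only a read-through transcript named after its neighbours, and in 495 a strand was not given. Head-to-head regions were present in all 6 libraries in 35.0% of cases (413 of 1179). That share was 21.8% (79 of 362) where a start met an end, 29.7% (11 of 37) for starts on the same strand and 3.23% (1 of 31) where only ends met. A region at 1 gene start alone had a peak in all 6 libraries in 20.2% of 7800 cases, and a region away from gene ends in 4.51% of 16794.

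**Figure D1:**
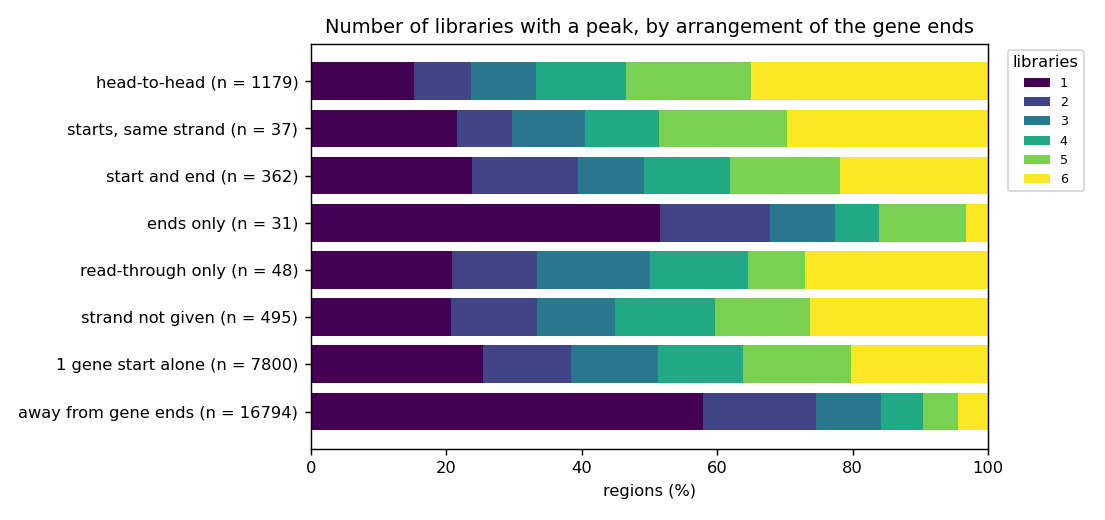
Share of regions (%, horizontal axis) with a peak in 1 to 6 libraries, coloured by the number of libraries, for each arrangement of the gene ends, for 7800 regions at 1 gene start alone and for 16794 regions away from gene ends. The share found in all 6 libraries is 35.0% in head-to-head regions and 4.51% away from gene ends.

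Shared regions had a peak more often, and a stronger one, than regions at a single gene end, in every library. The difference was tested within libraries, since each library gives 1 value for both sets. A peak was found at 64.9% of shared regions and at 55.2% of the 9933 single-gene-end regions on average over libraries, and the difference was 9.62 ± 3.62 percentage points (SD, n = 6 libraries, range 3.19 to 13.5). The fold of a region's strongest peak was ranked within its own list, as a percentile. The median percentile was 65.9 at shared regions and 58.9 at single-gene-end regions, a difference of 7.03 ± 2.06 (SD, n = 6). Both were higher in 6 of 6 libraries (exact sign-flip permutation over libraries, two-sided, p = 0.03125, the smallest that 6 pairs allow, and 0.03125 after Benjamini-Hochberg adjustment over 7 planned tests, 1 of which was on width and is not used). The same regions were scored in all 6 libraries, so these differences are not 6 independent draws of regions. A region merged from peaks of more libraries can be wider and so reach a second gene end more easily. The test of presence is thus not free of the rule that chose the regions. Nor is the test of strength, since a wider region can hold more summits and the strongest was taken. The merged regions had a median width of 704 bp when shared and 597 bp at a single gene end.

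A wider merged region is more likely to reach a second gene end and to meet a peak of any library, so width is part of what chose the regions and is given with no test. The median width of the peaks averaged 438.25 bp at shared regions and 390.75 bp at single-gene-end regions over libraries, a difference of 47.5 ± 19.5 bp (SD, n = 6). Regions of 500 to 900 bp were also compared alone, a choice made after seeing the data, and there the peaks' widths averaged 419.5 bp at shared regions and 399 bp at single-gene-end regions, a difference of 20.4 bp. The difference in the share with a peak among these was 3.72 percentage points and that in percentile 5.36, both still higher in shared regions in the same exact test (p = 0.03125, adjusted p = 0.0365). With lists cut to 7234 summits each, the difference in percentile was 2.84 (exact p = 0.09375), and with a −log10 q of at least 5 it was 1.96 (exact p = 0.1875), so the strength difference did not pass in either setting, while the difference in presence did.

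Within the shared set, head-to-head regions had the higher values. They had a peak in 82.6% and 71.8% of cases in V2084D shSTUB1, 58.2% and 92.6% in V2084D, and 61.7% and 49.6% in WT. The other shared regions with known strand (430 regions) had a peak in 71.9% and 57.0% in V2084D shSTUB1, 44.9% and 87.2% in V2084D, and 43.0% and 37.9% in WT. The difference averaged 12.4 ± 4.42 percentage points (SD, n = 6), from 5.41 in V2084D replicate 2 to 18.6 in WT replicate 1. In percentile of fold it averaged 8.37 ± 4.03 (SD, n = 6).

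A gene start with no second gene nearby is the closer comparison. At the 7800 regions of 1 gene start alone a peak was found in 72.4% and 58.8% of cases in V2084D shSTUB1, 43.7% and 88.1% in V2084D, and 45.5% and 32.7% in WT. Head-to-head regions exceeded these by 12.6 ± 4.597 percentage points (SD, n = 6) in the share with a peak and by 8.23 ± 2.30 in the percentile of fold. All 4 head-to-head differences were positive in 6 of 6 libraries (exact sign-flip permutation, two-sided, p = 0.03125, adjusted p = 0.03125). Presence and strength are both tied to the rule through width here too. Among regions of 500 to 900 bp alone the differences in presence were 5.55 points against the other shared regions and 5.31 points against 1 gene start (exact p = 0.03125 for both). The difference in percentile against the other shared regions was 5.44 there (exact p = 0.09375). Against 1 gene start, the percentile difference was 3.52 with a −log10 q of at least 5 (exact p = 0.15625) and 5.06 with equal lists (exact p = 0.0625).

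**Figure D2:**
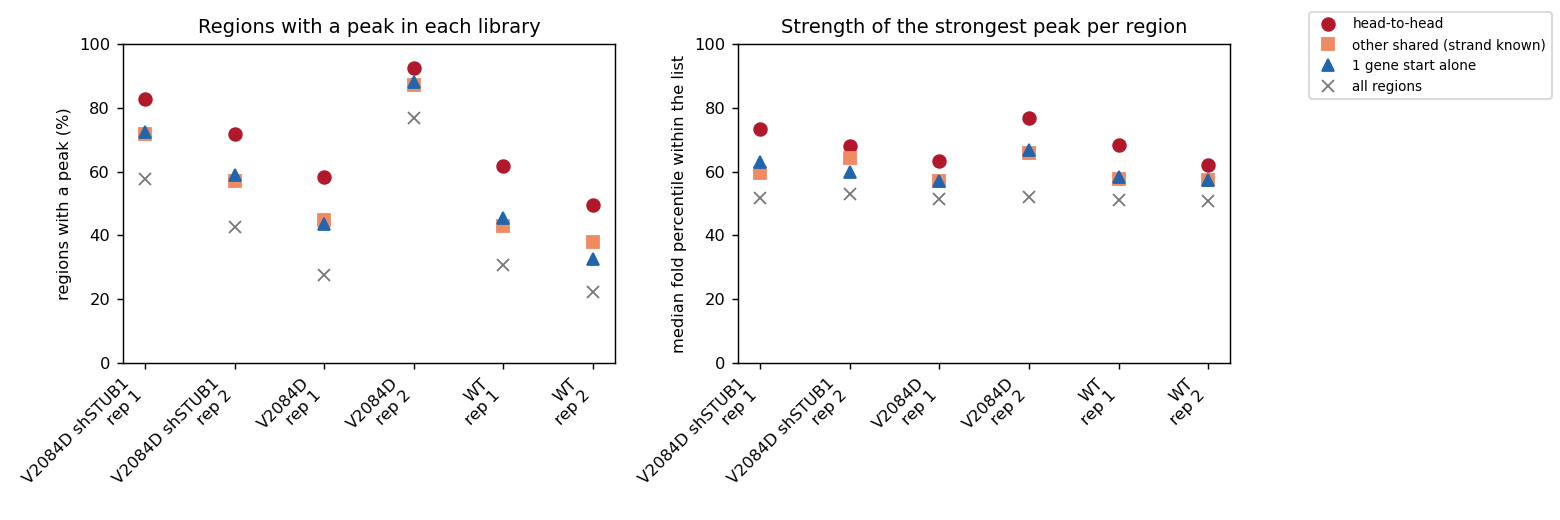
For each of the 6 libraries (horizontal axis), the share of regions with a peak (left, %) and the median percentile of fold within that library's list (right), for 1179 head-to-head regions, 430 other shared regions, 7800 regions at 1 gene start alone and all 28879 regions. The head-to-head points lie above the other sets in all 6 libraries, and in the left panel all sets are highest in V2084D replicate 2 and lowest in WT replicate 2.

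The distance from a region to its second gene end varied, and the recurrence varied with it. Where the second gene lay within 100 bp of the region (1208 regions), 42.2% had a peak in all 6 libraries and the median was 5 libraries. Where it lay 101 to 500 bp away (478 regions), 14.9% did, with a median of 2 libraries. From 501 to 900 bp the share was 15.3% (386 regions). Just inside the limit, at 901 to 1000 bp, 7 of 80 regions (8.75%) had a peak in all 6 libraries, and just outside it, at 1001 to 1100 bp, 12 of 92 (13.0%) did. Beyond 100 bp the shares lay below the 18.8% of single-gene-end regions. These distances include the width of the region, and width was not removed from this description.

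The 1179 head-to-head regions belonged to 1009 different pairs of genes, of which 859 had 1 region, 131 had 2 and 19 had 3 or more. Over the 1179 regions the median distance from start to start was 121 bp, with overlaps counted as negative distances. In 301 regions the 5′ ends of the genes overlapped, and in 667 (56.6%) the starts were 0 to 300 bp apart. Presence in all 6 libraries was 22.4% at 0 to 100 bp between starts (214 regions), 31.8% at 101 to 200 bp (286), 47.2% at 201 to 400 bp (246), 46.7% at 401 to 1000 bp (105) and 25.9% beyond 1000 bp (27). Where the 5′ ends overlapped by up to 200 bp it was 42.9% (42 regions) and where they overlapped by more it was 32.4% (259). The classes of distance were chosen after the data had been seen and carry no test.

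**Figure D3:**
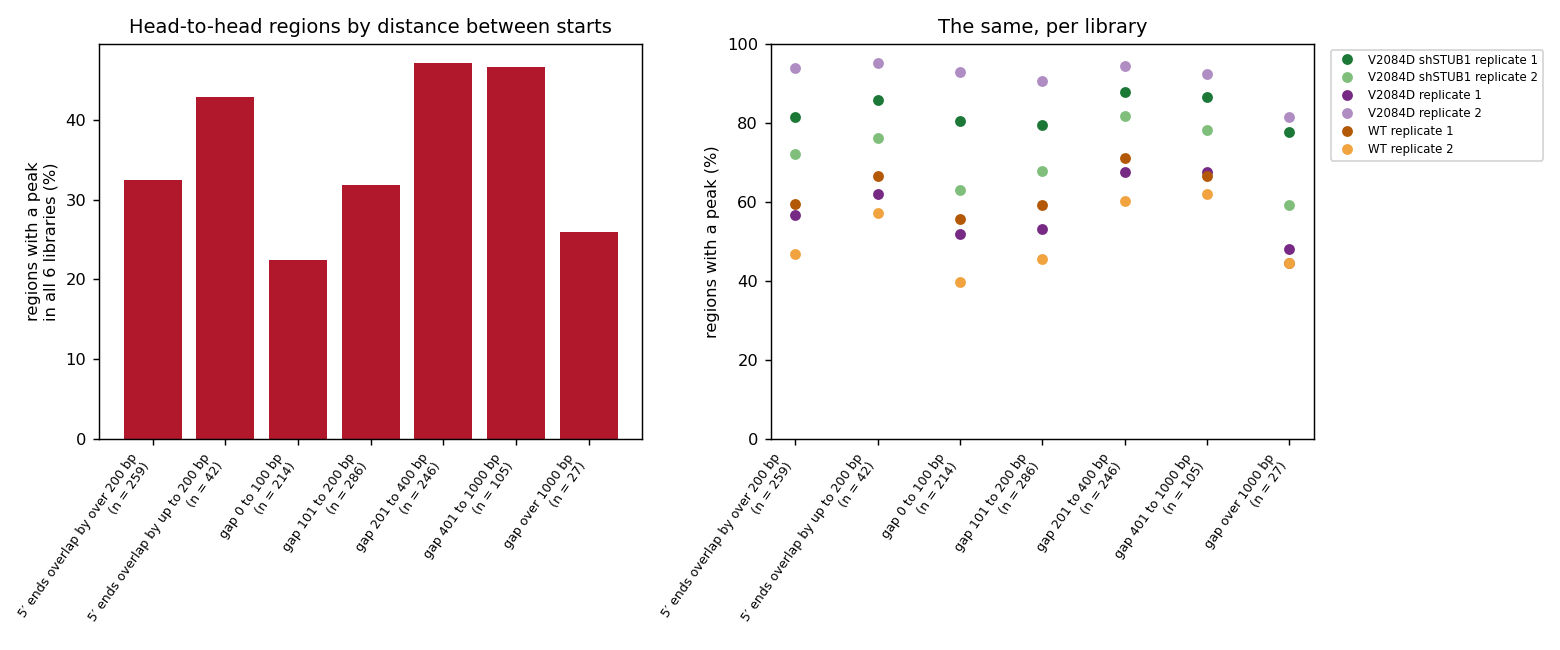
Head-to-head regions grouped by the distance between the starts (horizontal axis, with the number of regions), as the share with a peak in all 6 libraries (left, %) and the share with a peak in each library (right, %). The tallest bar is 47.2% for starts 201 to 400 bp apart, and starts 0 to 100 bp apart reach 22.4%.

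The summit, the point of most insertions in a peak, lay between the starts in more than 50% of head-to-head regions with starts 100 to 400 bp apart. The share was 58.1% and 54.5% in V2084D shSTUB1, 55.8% and 52.0% in V2084D, and 57.6% and 64.2% in WT. The median distance of the summit from the midpoint of the starts was 87 to 112.75 bp over libraries. In head-to-head regions the nearest start lay a median of 67 to 84 bp from the summit, while at 1 gene start alone the summit lay 151 to 198 bp from that start. A pair offers more starts to be near, so the distances of the sets are not like for like.

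Motifs were searched as exact letters in the 300-base promoters of RefSeq (250 bases before and 50 after a start), on both strands. The GC box was searched as GGGCGG, the site of SP1 and its relatives. The letters CCAAT stood for the box that NF-Y binds. ETS factors such as GABP were represented by CCGGAAG, and the regulator YY1 by AAGATGGCG. The TATA box was searched as TATAAA. The E-box was taken as CACGTG, and the cyclic AMP response element as TGACGTCA. The AP-1 site was searched as TGACTCA and the forkhead site as TGTTTAC. NRF1 and ZNF143 were each searched by 1 longer word. No motif contains another. A promoter was found for 902 of 1008 right-hand genes of the pairs, for 5782 of 6373 genes at 1 gene start alone and for 13793 protein-coding genes in all. Where the starts of a pair lie close together, the right-hand gene's window can also hold the partner's start. The motif shares of these sets are thus not like for like. ETS letters were in 27.3% of the pairs' promoters, 18.5% of those at 1 gene start alone and 14.6% of all. YY1 letters were in 5.76%, 3.995% and 2.87% of the same sets, and ZNF143 letters in 1.33%, 0.553% and 0.406%. TATA letters were rarer in pairs, at 4.10%, than in promoters at 1 gene start (5.38%) and in all promoters (10.03%). Among promoters with a region in all 6 libraries this order was turned, with 4.30% in pairs (16 of 372) and 3.23% at 1 gene start (45 of 1394).

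The GC box was as frequent in pairs (72.4%) as at 1 gene start alone (73.6%), and both were above all promoters (58.5%). CCAAT letters were in 40.6% of pairs, 37.4% at 1 gene start and 37.1% of all promoters. Its share differed more with recurrence than with arrangement. Among pairs it was in 27.3% of promoters with a region in 1 or 2 libraries, in 35.9% with a region in 3 to 5 and in 186 of 372 with a region in all 6. At 1 gene start alone the same shares were 29.2%, 36.3% and 49.1%. ETS letters in pairs ran 19.8%, 27.4% and 29.6% in that order, and 12.2%, 20.1% and 22.4% at 1 gene start alone. The median GC content went the other way, with 69.0% in pairs found in 1 or 2 libraries and 63.0% in pairs found in all 6. At 1 gene start alone it was 68.0% and 65.0%. These shares describe reference sequence and carry no test, and a match is not evidence that a factor was bound.

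**Figure D4:**
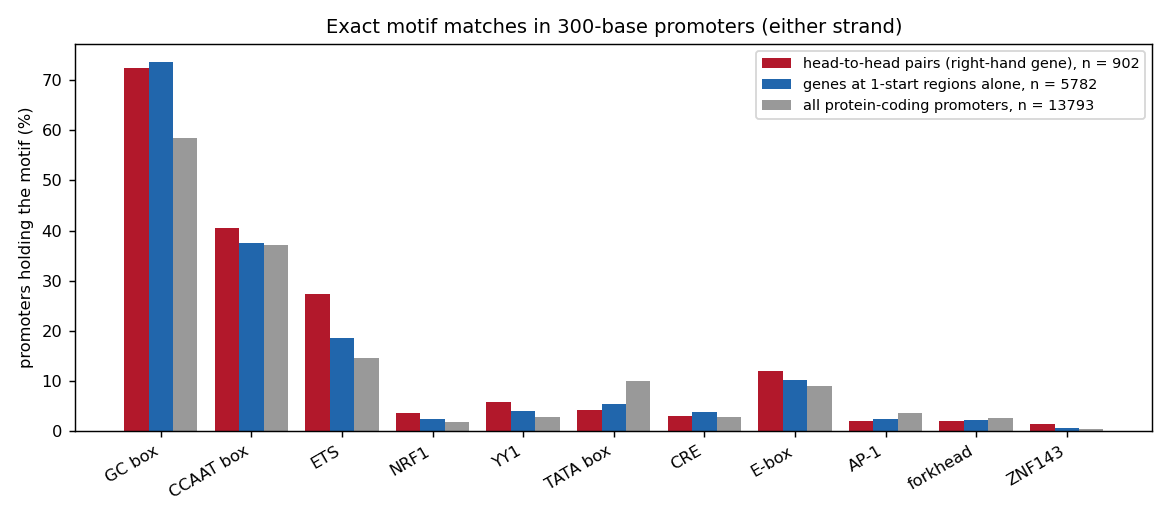
Share of 300-base promoters (%, vertical axis) that hold each motif on either strand, for the right-hand genes of 902 head-to-head pairs, 5782 genes at 1 gene start alone and 13793 protein-coding promoters. The ETS bars stand at 27.3%, 18.5% and 14.6%, and the TATA bars at 4.10%, 5.38% and 10.03%.

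The strongest pair found in all 6 libraries was TMEM53/ARMH1 (chr1:44674038-44675037, starts 233 bp apart), whose promoter is printed above with 3 CCAAT boxes and a GC box. TMEM53 encodes a membrane protein of the nuclear envelope. Its fold over local background was 11.1 and 9.83 in V2084D shSTUB1, 8.67 and 11.5 in V2084D, and 10.8 and 11.9 in WT. The groups overlapped, and the lowest value was in V2084D replicate 1. By mean percentile of fold SF3A1/CCDC157 (96.9) and KIAA0319L/NCDN (96.8) came next, after 99.4 for TMEM53/ARMH1. KIAA0319L/NCDN (chr1:35557055-35557900) had folds of 11.4 and 9.55 in V2084D shSTUB1, 7.80 and 9.24 in V2084D, and 7.85 and 8.85 in WT. NCDN encodes neurochondrin, a neuronal protein, and the stretch between the starts holds a YY1 match and a CCAAT box.

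SF3A1, a subunit of the splicing factor 3a complex, shares its region with CCDC157 (chr22:30356464-30357360), with a start-to-start distance of −270 bp, the sign marking an overlap of the 5′ ends. The fold was 11.9 and 9.27 in V2084D shSTUB1, 8.59 and 11.6 in V2084D, and 8.47 and 7.30 in WT. TDG, a DNA glycosylase of base excision repair, faces UQCC6, an assembly factor of respiratory complex III (chr12:103965601-103966328). Its fold was 8.74 and 8.85 in V2084D shSTUB1, 7.24 and 9.52 in V2084D, and 7.45 and 8.95 in WT. POLR3F, a subunit of RNA polymerase III, faces DZANK1 (chr20:18466685-18467558), with folds of 10.6 and 9.50 in V2084D shSTUB1, 8.24 and 7.44 in V2084D, and 9.76 and 8.24 in WT. By percentile of fold within a list, both WT values lay below the others at SF3A1, and the groups overlapped at TDG. At POLR3F both V2084D shSTUB1 percentiles lay above both V2084D percentiles. The fold is the caller's value, comparable only as a rank within a list. The other strongest pairs were CCDC142/TTC31, RMND1/DCPH1 (RMND1 acts in mitochondrial translation) and ERG28/TTLL5, with folds between 6.59 and 11.3.

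**Figure D5:**
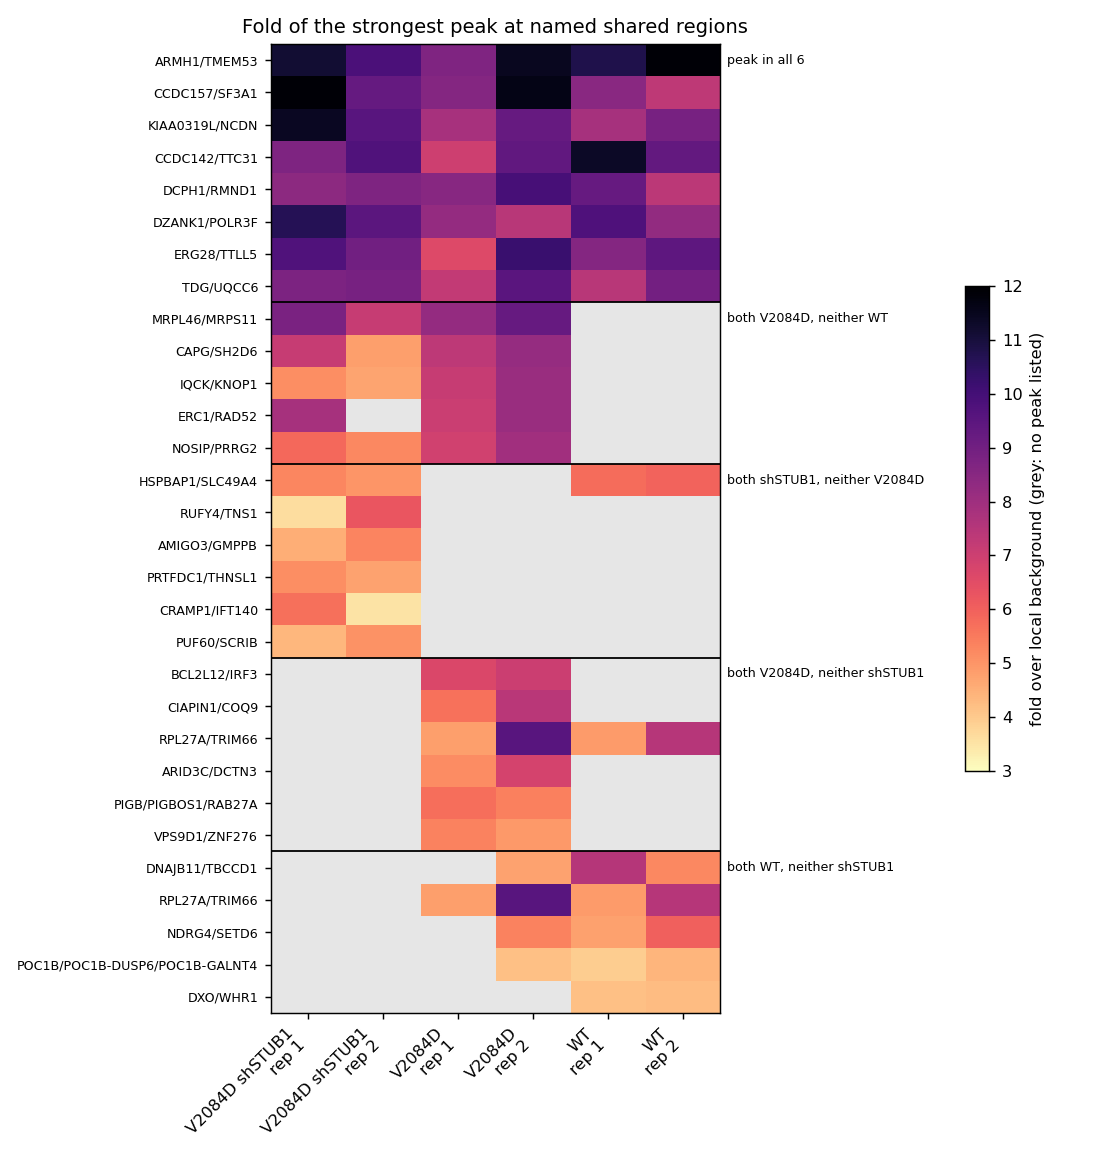
Fold over local background of the strongest peak (colour, grey where no peak is listed) at named shared regions (rows, by gene symbols) in the 6 libraries (columns). The top block holds the 8 strongest head-to-head pairs with a peak in all 6 libraries, and the blocks below hold regions found in both replicates of one group and in no replicate of another. TMEM53/ARMH1 (11.1, 9.83, 8.67, 11.5, 10.8 and 11.9) has a peak in every column. The lower blocks hold grey cells, with folds of up to 9.54 (TRIM66/RPL27A in V2084D replicate 2).

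Genes of 10 lists were counted by role, with 31.6% of all genes that had a region lying at a shared one and 17.4% (2017 of 11618) lying head to head as the background. Of the genes of the mitochondrial ribosome, 36 of 70 with a region (51.4%) were at a shared region, and 21 (30%) were head to head. For the respiratory chain and ATP synthase it was 41 of 79 (51.9%), with 29 (36.7%) head to head. For DNA repair it was 35 of 67 (52.2%), with 26 (38.8%) head to head. Aminoacyl-tRNA synthetases (13 of 31), chaperones (25 of 61) and the cytosolic ribosome (28 of 81) lay between 34.6% and 41.9%, and the proteasome (12 of 39) stood at 30.8%, near the background. Zinc-finger genes were at 18.3% (70 of 382), and none of 11 protocadherins with a region was at a shared one. These are counts of gene position and carry no test.

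Replication-dependent histones, which sit in dense clusters, had the highest share, with 35 of 52 genes (67.3%) at 27 shared regions. Of those 27 regions only 1 had a peak in all 6 libraries (3.70%), against 30.1% of all shared regions. That one was H2AC25/H2BC26 (chr1:228457187-228458694), with folds of 7.79 and 7.83 in V2084D shSTUB1, 6.90 and 8.21 in V2084D, and 8.11 and 7.55 in WT. H2AC6/H2BC4 in the chromosome 6 cluster had a peak in V2084D shSTUB1 replicate 1 (fold 8.13) and in V2084D replicate 2 (fold 4.01) and in no other library. Shared regions of chaperones had the highest share in all 6 libraries, 13 of 31 (41.9%), followed by those of aminoacyl-tRNA synthetases, 6 of 15 (40.0%). DNA repair stood at 33.3% (14 of 42). The respiratory chain (26.7%), zinc-finger genes (26.6%), the proteasome (25.0%), the cytosolic ribosome (23.5%) and the mitochondrial ribosome (21.1%) lay below the 30.1% of all shared regions.

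Within DNA repair, PMS1 and PMS2, both of mismatch repair, had strong shared promoters. ORMDL1/PMS1 (chr2:189783697-189784800) had folds of 10.3 and 9.85 in V2084D shSTUB1, 6.59 and 11.3 in V2084D, and 7.41 and 9.31 in WT. AIMP2/PMS2 (chr7:6008938-6009660) had folds of 7.60 and 7.52 in V2084D shSTUB1, 7.98 and 8.62 in V2084D, and 7.33 and 8.42 in WT. By percentile of fold within a list, both V2084D shSTUB1 values at ORMDL1/PMS1 lay above both WT values. The V2084D percentiles spanned them all. At AIMP2/PMS2 both V2084D shSTUB1 percentiles lay below both V2084D percentiles, and both groups overlapped WT. In the synthetase list HARS1/HARS2, the cytosolic and mitochondrial histidyl-tRNA synthetases with starts 85 bp apart, had a peak in all 6 libraries with folds of 6.52 to 9.76.

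Of 23 head-to-head pairs listed from textbook knowledge, 19 had a shared region. Those with a peak in all 6 libraries were HSPD1/HSPE1 (the mitochondrial chaperonin and its co-chaperonin), GART/SON, PRKDC/MCM4, TK1/AFMID, FEN1/TMEM258, RANBP1/TRMT2A and, over its 2 regions together, SIRT3/PSMD13. HSPD1/HSPE1 (chr2:197499595-197500508, starts 105 bp apart) had folds of 6.30 and 6.25 in V2084D shSTUB1, 5.21 and 5.79 in V2084D, and 5.36 and 5.50 in WT. ATM/NPAT, a damage kinase facing a regulator of histone genes, had a peak in 5 libraries and none in V2084D replicate 1. Its fold was 5.65 and 7.48 in V2084D shSTUB1, 5.77 in V2084D replicate 2, and 8.70 and 6.48 in WT.

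COL4A1/COL4A2, collagen IV chains whose starts are 127 bp apart, had a peak in V2084D replicate 2 alone (fold 5.15). BRCA2/ZAR1L had 2 regions, the stronger with folds of 8.41 and 8.17 in V2084D shSTUB1, 8.05 in V2084D replicate 2, and 7.07 and 5.26 in WT. PAICS/PPAT, SURF1/SURF2 and ACACA/TADA2A were among those with no shared region. For PAICS/PPAT the RefSeq gene bodies overlap, with a start-to-start distance of −25108 bp, and 1 region lay at an end of one of them. No region lay at either gene of SURF1/SURF2 or of ACACA/TADA2A.

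Between groups, the number of shared regions per library was 1547 ± 566 in V2084D and 1068.5 ± 162 in WT (SD, n = 2 each). The median percentile of fold at shared regions was 67.4 ± 8.68 in V2084D and 62.5 ± 4.19 in WT (SD, n = 2 each). Neither difference exceeded the spread between the V2084D libraries (exact permutation, two-sided, p = 0.666667 for each, adjusted p = 1 over 9 tests). With 2 libraries a group no p below 0.333333 can be reached. The difference in number, 478.5 in the full lists, was 9.5 with lists of equal length and 71 without V2084D replicate 2. The difference in percentile, 4.89 in the full lists, was −3.34 with lists of equal length and −0.789 without V2084D replicate 2. Shared regions made up 11.5 ± 3.93% of a V2084D list and 14.1 ± 1.11% of a WT list (SD, n = 2 each), with the same exact p.

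A peak in both V2084D and neither WT library was found at 150 shared regions (6.97%), and 5.56% of all 28879 regions showed that pattern. At single-gene-end regions the share was 7.80% and at head-to-head regions 6.28%, so the shared regions did not stand out in this direction. The opposite pattern, a peak in both WT and neither V2084D library, was found at 2 shared regions (0.0929%), against 0.187% of all regions. The counts moved with the lists, and with all lists cut to equal length they were 59 and 70, so the second count exceeded the first. With a library left out, the condition for its group rests on the library that remains and is looser. By that looser condition the counts were 198 and 132 without V2084D replicate 2. The first count was 655 without V2084D replicate 1, 364 without WT replicate 1 and 229 without WT replicate 2. Of the 150 regions, 87 (58.0%) also had a peak in both V2084D shSTUB1 libraries, 49 in 1 of them and 14 (9.33%) in neither. Of the 1606 regions of any kind with that pattern, 776 (48.3%) had a peak in both and 279 (17.4%) in neither, and the difference was not tested.

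Among the strongest of the 150 was MRPL46/MRPS11 (chr15:88467084-88468031), a pair of mitochondrial ribosomal protein genes. It had folds of 8.80 and 7.14 in V2084D shSTUB1 and 8.24 and 9.23 in V2084D, with no peak in WT. Its summits held 18 and 12 reads in V2084D shSTUB1 and 13 and 23 in V2084D. It had a peak in 4 libraries also with lists of equal length and with a −log10 q of at least 5, and in 2 libraries where peaks had to cover at least 50% of the region. Of the shared regions of mitochondrial ribosome genes, 5 of 38 were among the 150, and of those of the respiratory chain list 2 of 45, against 150 of 2152 (6.97%) for all shared regions.

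RAD52, a recombination protein, shares a region with ERC1 (chr12:990411-991216) that had a fold of 7.85 in V2084D shSTUB1 replicate 1 and folds of 7.07 and 8.12 in V2084D, with no peak in WT. KNOP1/IQCK, whose short stretch of 43 bases between the starts holds an ETS match, had folds of 7.14 and 8.11 in V2084D against none in WT. NOSIP/PRRG2 had folds of 6.92 and 7.95 in V2084D and CAPG/SH2D6, where CAPG caps actin filaments, had 7.35 and 8.18, again with no peak in WT. With lists of equal length KNOP1/IQCK and NOSIP/PRRG2 had a peak in 2 libraries and CAPG/SH2D6 in 3, where each had 4 before. The regions with a peak in WT and not in V2084D were HSPBAP1/SLC49A4 (folds 5.77 and 5.92 in WT) and DXO/WHR1 (4.17 and 4.24 in WT, on 4 reads each).

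After knockdown of STUB1, shared regions numbered 1571.5 ± 180 in V2084D shSTUB1 and 1547 ± 566 in V2084D (SD, n = 2 each), a difference of 24.5. The exact permutation p was 1, and with equal lists the difference was −27.5. A peak in both V2084D shSTUB1 and neither V2084D library was found at 16 shared regions (0.743%), against 1.29% of all regions. The opposite pattern was also found at 16 (0.743%), against 1.19% of all regions. With a library left out, the condition for its group rests on the library that remains and is looser. By that looser condition the first count was 340 without V2084D replicate 2, and the second was 284 without V2084D replicate 1. The V2084D lists differ most in length. The shared regions of V2084D replicate 2 overlapped those of V2084D shSTUB1 replicate 1 at a Jaccard index of 0.767, against 0.559 between the V2084D replicates.

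Regions with a peak in V2084D shSTUB1 and not in V2084D were weak. RUFY4/TNS1, where TNS1 encodes the focal adhesion protein tensin, had folds of 3.62 and 6.25 in V2084D shSTUB1. CRAMP1/IFT140, where IFT140 acts in intraflagellar transport, had 5.70 and 3.52. GMPPB, an enzyme that makes GDP-mannose, shares with AMIGO3 a region with folds of 4.55 and 5.30. HSPBAP1/SLC49A4 had 5.26 and 5.0 in V2084D shSTUB1, and WT had it too in either library, so V2084D alone lacked it. PRTFDC1/THNSL1 had 5.11 and 4.73, and PUF60/SCRIB, where PUF60 is a splicing factor and SCRIB a polarity protein, had 4.35 and 5.06. With a −log10 q of at least 5, none of these 6 kept a peak in more than 1 library.

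Regions with a peak in V2084D and not in V2084D shSTUB1 included BCL2L12/IRF3 (chr19:49665509-49666161), where IRF3 is a transcription factor of the interferon response. It had no peak in V2084D shSTUB1, folds of 6.67 and 7.01 in V2084D, and no peak in WT. The region had a peak in 2 libraries also with equal lists and with a −log10 q of at least 5. CIAPIN1/COQ9, where CIAPIN1 acts in iron-sulfur cluster assembly and COQ9 in coenzyme Q synthesis, had 5.65 and 7.41 in V2084D on 6 and 11 reads. TRIM66/RPL27A, where RPL27A encodes a cytosolic ribosomal protein, had no peak in V2084D shSTUB1, 4.82 and 9.54 in V2084D and also 4.88 and 7.47 in WT. PIGB/PIGBOS1/RAB27A had 5.71 and 5.38, DCTN3/ARID3C 5.15 and 6.82 and VPS9D1/ZNF276 5.33 and 4.91 in V2084D.

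V2084D shSTUB1 was also set against WT, which shares its WT libraries with the comparison of V2084D and WT. A peak in both V2084D shSTUB1 and neither WT library was found at 202 shared regions (9.39%), against 8.46% of all regions and 10.7% of single-gene-end regions. The opposite was found at 5 (0.232%), against 0.246% of all regions. With lists of equal length the counts were 51 and 66, with the second above the first. With a library left out, the condition for its group is looser. The first count was then 302 without V2084D shSTUB1 replicate 1, 453 without replicate 2, 472 without WT replicate 1 and 304 without WT replicate 2. The number of shared regions was 1571.5 ± 180 in V2084D shSTUB1 and 1068.5 ± 162 in WT (SD, n = 2 each). The libraries of these groups did not overlap, which gives the smallest p the design allows (exact permutation, two-sided, p = 0.333333, adjusted p = 1). The difference in number, 503 in the full lists, was −18.0 with lists of equal length.

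GTF3C1/KATNIP (chr16:27549607-27550489) was the strongest of the 202. GTF3C1 encodes the largest subunit of TFIIIC, and the stretch between the starts holds matches to NRF1, CRE, GC box, CCAAT and ETS letters. Its folds were 11.9 and 9.28 in V2084D shSTUB1 and 5.62 and 7.73 in V2084D, with no peak in WT. IDI1, an isomerase of the cholesterol pathway, shares with WDR37 a region with folds of 9.0 and 7.32 in V2084D shSTUB1 and 7.14 in V2084D replicate 2. PIGP/TTC3, where PIGP acts in GPI anchor synthesis, had 8.40 and 6.96 in V2084D shSTUB1 and 5.75 and 4.97 in V2084D. ERI2/REXO5, both exonuclease genes, had 7.45 and 8.23 in V2084D shSTUB1 and 5.42 and 8.73 in V2084D.

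The 5 shared regions with a peak in both WT and neither V2084D shSTUB1 library included DNAJB11/TBCCD1 (chr3:186570303-186570822), where DNAJB11 is a co-chaperone of the endoplasmic reticulum. Its folds were 4.74 in V2084D replicate 2 and 7.53 and 5.23 in WT, and the stretch between the starts holds 3 CCAAT boxes. The others were TRIM66/RPL27A, NDRG4/SETD6 (folds 4.78 and 6.0 in WT), the read-through set of POC1B (3.93 and 4.40 in WT) and DXO/WHR1.

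The regions with the most gene ends, 6 in all, had 4 genes each, and the 3 of them with the highest mean percentile of fold are described. At MKKS and SLX4IP on chromosome 20, where MKKS is a chaperonin-like protein and 2 further RefSeq genes have only LOC names, 2 neighbouring regions were found. One (chr20:10433899-10434779) had a peak in 4 libraries, with folds of 7.34 in V2084D shSTUB1 replicate 2, 4.74 and 6.16 in V2084D and 4.71 in WT replicate 1. The other (chr20:10434992-10435238) had a peak in V2084D shSTUB1 replicate 1 alone (fold 6.03). Each library with a peak at this locus thus had it in 1 of these regions, and WT replicate 2 had it in neither. The other of these 3 lay at 4 LOC genes near the end of chromosome 19 (chr19:70886-71498) and had folds of 5.15 and 3.85 in V2084D shSTUB1, 8.11 in V2084D replicate 2 and 5.56 in WT replicate 1.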

How the data were processed

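ATAC-seq peak lists of 6 libraries were used, 2 each of V2084D shSTUB1, V2084D and WT, grouped by title. MACS2, Bowtie2, bedtools, deepTools, Picard, SAMtools and Trimmomatic, with hg38 as the build, are named in the submitters' processing notes, which give no role or order. Tool versions, parameters and a Tn5 offset were not given in the sources used here. Each library has its own deposited narrowPeak file, and replicates were not pooled. Each peak's deposited score, −log10 q, −log10 p and fold (its ratio over the local background) are the authors' values from their caller, and the summit offset (other) is also deposited. The lowest deposited −log10 q per list was 1.30 to 1.31. Read totals were not used here.

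Regions, presence and fold percentiles were computed with Python 3.11.15, pandas 2.3.3, numpy 2.4.6 and SciPy 1.17.1, and figures with matplotlib 3.10.9. A region was present in a library when a peak overlapped it by 1 bp. Fold was ranked within a list, since lists of different lengths are not comparable. Reads per summit were recovered from fold (pseudocount 1) and −log10 p within 0.001, and came out whole for over 99.9% of summits. On simulated summits reads were recovered for 99.98% of 4968. Starts and ends came from RefSeq, which gave a strand for 15813 of 19974 protein-coding genes through its promoter table. Summits on other chromosomes (2.07% to 2.60% per list) were left out.

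Groups were compared by exact permutation over libraries and sets of regions by exact sign-flip permutation within libraries, both two-sided, with Benjamini-Hochberg adjustment and a threshold of 0.05. The libraries are the unit, so p-values measure only the spread between them.

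Named were the 8 strongest head-to-head pairs in all 6 libraries, up to 6 regions per direction of each comparison by mean fold percentile, the 3 regions with most gene ends, 23 known pairs and, per gene list, its 3 strongest regions (the text gives some of these, and a few items that met the rule are not reported here). The members, lists and rules were chosen with earlier results of these data known. Alternatives were windows of 500 and 2000 bp, lists cut at a −log10 q of 5 or to 7234 summits, 50% coverage, the position of the strongest summit, no read-through genes, each library left out, a replicate block and, after seeing the data, 1 nearest region per gene pair and regions of 500 to 900 bp.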

Additional observations from a re-analysis of the deposited data

How the results depend on the processing

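The number of shared regions was 1604 to 2784 over the settings other than leaving out a library and stayed within 1.5 times of 2152. Presence in all libraries, 647 regions, was 162 with a −log10 q of at least 5, 364 with equal lists and 97 with 50% coverage. With equal lists the differences between groups turned: the number of shared regions was −27.5 for V2084D shSTUB1 minus V2084D and −18.0 for V2084D shSTUB1 minus WT, the share of a list was 0.888 points for V2084D minus WT and 0.850 for V2084D shSTUB1 minus WT, and the fold percentile was −3.34 and −3.11 for the same pairs. With 50% coverage the number was −0.5 for V2084D shSTUB1 minus V2084D, and the percentile −1.13 for V2084D minus WT and −0.511 for V2084D shSTUB1 minus WT. The cause was not tested, and none of these differences passed in any setting. Regions with a peak in both of one group and neither of another, in the order V2084D not WT, WT not V2084D, shSTUB1 not V2084D, V2084D not shSTUB1, shSTUB1 not WT and WT not shSTUB1, numbered 59, 70, 52, 53, 51 and 66 with equal lists. WT not V2084D was 0 with a 500 bp window, 4 with 2000 bp, 4 with 50% coverage and 0 by strongest summit. WT not shSTUB1 was 8 with 2000 bp and 8 with a −log10 q of at least 5. With 50% coverage shSTUB1 not V2084D was 27, V2084D not shSTUB1 26 and shSTUB1 not WT 346. Of the 6 differences within libraries in presence and strength, the 3 in presence passed in every setting with 6 libraries. Presence is tied to the rule through the width of a region, and so is strength, taken from the strongest summit of a region. The difference in width, which carries no test, was 20.4 bp among regions of 500 to 900 bp and 31.5 to 55.3 bp in the other settings. The fold percentile did not pass for shared against single-gene-end regions with a −log10 q of at least 5 (1.96, exact p = 0.1875) or equal lists (2.84, exact p = 0.09375), for head-to-head against 1 gene start in the same settings (3.52, exact p = 0.15625; 5.06, exact p = 0.0625), or for head-to-head against other shared regions of 500 to 900 bp (5.44, exact p = 0.09375). With a library left out, 5 pairs cannot reach a p below 0.0625 and no difference within libraries can pass. Their signs held, with ranges of 8.61 to 9.41 points, 6.66 to 7.81 percentiles and 42.8 to 51.4 bp for shared against single-gene-end regions, 9.34 to 12.4 points and 7.03 to 9.30 percentiles for head-to-head against other shared regions, and 10.6 to 12.2 points and 7.71 to 8.95 percentiles against 1 gene start. The number of regions ran 1998 to 2145 and those in all libraries 635 to 829. Between groups, the difference in number ran 71 to 889 (V2084D minus WT), −381 to 443.5 (shSTUB1 minus V2084D) and 379 to 632 (shSTUB1 minus WT), in share of the list −5.35 to 0.0489, −3.30 to 2.19 and −3.98 to −2.40, and in percentile −0.789 to 10.8, −5.45 to 6.01 and 2.33 to 8.47. The 6 pattern counts, in the order above, ran 150 to 655, 3 to 132, 16 to 340, 16 to 284, 205 to 472 and 5 to 38. A group that lost a library met a looser condition in these counts. Of 82 named regions, the number of libraries changed in 40 with a −log10 q of at least 5, in 40 with equal lists and in 51 with 50% coverage. Libraries with the same replicate number deviated together by a correlation of 0.0353, 0.0326 and −0.00748. Such values cannot show whether a replicate number marks a batch, and the labels do not say. With the replicate as a block (pairing by number) the differences and counts were the same, 478.5, 24.5 and 503 shared regions, with exact p = 1, 1 and 0.5, where 0.5 is the smallest that 2 pairs allow. Limits are the summits' 8 to 12 reads (medians), lists that differ in depth along with group, and 495 regions with no strand.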

Other observations

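Protein-coding genes alone were used to choose the regions, so a head-to-head partner that is a long noncoding RNA did not count. Of the 9933 single-gene-end regions, 2411 (24.3%) also lay within 1000 bp of an end of a long noncoding RNA gene. Such regions had a peak in all 6 libraries in 22.1% of cases, against 17.7% of those with no such end, and in 3.53 against 3.25 libraries on average. At 1 gene start alone the shares were 23.5% and 19.1%. Among the 2152 shared regions, 185 had a long noncoding RNA end as well, with 29.2% in all 6 libraries against 30.1% of the others. No test was made.

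Shared regions were unevenly spread over chromosomes, as a share of each chromosome's own regions. Chromosome 16 had 12.9% (118 of 912), chromosome 17 had 12.4% (170 of 1372) and chromosome 19 had 11.4% (175 of 1534). Chromosome 13 had 4.02% (29 of 721) and chromosome 4 had 4.198% (55 of 1310). Presence in all 6 libraries was lowest on chromosome X, at 16.3% of 49 shared regions, and on chromosome 6, at 16.7% of 120. It was highest on chromosome 14, at 41.8% of 79.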
